A study of Homo sapiens with 3 samples.

Results

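Aminoacyl-tRNA synthetases, the enzymes that attach each amino acid to its own tRNA, were followed at the mRNA level in 293T cells. The 37 genes were taken by name from a list, with no threshold on their values, and all 37 were found among the 23284 gene names of each library. Names ending in 2 mark the mitochondrial enzymes, with a single exception among the 17 names of this form. TARSL2 encodes a second cytosolic threonyl-tRNA synthetase, so 16 genes were counted as mitochondrial and 21 as cytosolic. GARS and KARS, for glycine and lysine, encode both the cytosolic and the mitochondrial enzyme and were counted as cytosolic.

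The study compared 3 libraries of 293T, a line of human embryonic kidney cells, with 1 library per condition. dCas9-VP64 was present in all 3 cell populations. It joins a cleavage-dead Cas9, which still binds DNA where its guide RNA directs it, to the VP64 activator of transcription. The mock cells carried the parental guide vector, and the other cells carried sgL1ASP #1 or sgL1ASP #3, guide RNAs against the antisense promoter (ASP) of LINE-1 (L1) retrotransposons. The question behind the comparison was which genes respond when the L1 ASP is activated.

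A synthetase activates its amino acid with ATP and transfers it to the end of the matching tRNA, and so sets the meaning of each codon. The enzymes fall into class I and class II, which have unrelated catalytic folds. Cytosolic translation and translation of the few proteins encoded by mitochondrial DNA use mostly separate enzymes, all encoded in the nucleus. Several cytosolic enzymes are held together with scaffold proteins in the multisynthetase complex. Genes of many cytosolic enzymes are known targets of ATF4, the transcription factor of the amino acid stress response, which acts through the C/EBP-ATF response element (CARE).

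The CARE core, TGATGNAA, was searched on both strands in RefSeq promoter windows of GRCh38.p14, which run from 250 bases before to 50 bases after a transcript start. A window was found for 30 of the 37 genes, 16 cytosolic and 14 mitochondrial, and not for AARS2, DARS, LARS, TARSL2, VARS, VARS2 and YARS. Some genes had several windows, for different starts, and a match in any of them counted. The core occurred in 8 of the 30 genes, of which 7 were cytosolic and 1, YARS2, was mitochondrial. Of all 27305 genes with a window 4.46% held it, and of the 9838 with mean FPKM at least 1 in these libraries 2.56% did. The 8 matches are shown, since they mark the members with the letters of this stress element. Each is printed with its neighbouring bases in the direction in which the core reads as spelled, with the core in capitals.
AARS, chr16:70289675-70289704, plus strand: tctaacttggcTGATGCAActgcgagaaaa
CARS, chr11:3057407-3057436, plus strand: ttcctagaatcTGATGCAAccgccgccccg
GARS, chr7:30594834-30594863, minus strand: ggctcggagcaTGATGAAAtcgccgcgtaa
IARS, chr9:92293692-92293721, plus strand: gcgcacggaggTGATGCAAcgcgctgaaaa
MARS, chr12:57488053-57488082, minus strand: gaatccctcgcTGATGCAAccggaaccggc
NARS, chr18:57621804-57621833, minus strand: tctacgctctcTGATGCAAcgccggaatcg
TARS, chr5:33440956-33440985, minus strand: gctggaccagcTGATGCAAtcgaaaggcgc
YARS2, chr12:32756076-32756105, minus strand: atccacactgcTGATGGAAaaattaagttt

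The matches of CARS, GARS, IARS, MARS, NARS and TARS lay close to the transcript start of the window that held them. Their first base along the gene stood at -2, -33, -13, -4, 15 and 3 from that start. Those of AARS and YARS2 lay at -187 and -197. The core of an ETS factor site, CCGGAAG, occurred in 16 of the 30 genes, 9 cytosolic and 7 mitochondrial, against 12.2% of all genes with a window and 22.8% of those with mean FPKM at least 1. TATAAA, the core of the TATA box, occurred in GARS at -162 and in WARS at -124, against 14% and 7.90% of genes. The WARS match was on the strand opposite to the gene. No CARE core overlapped an ETS core. A match describes these letters and is not evidence of binding.

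HARS and HARS2, for histidine in the cytosol and in mitochondria, are transcribed away from each other from neighbouring starts. The 84 bases between their RefSeq starts are shown as the shared stretch of both promoters, with the 2 ETS cores (in either orientation) in capitals.
HARS and HARS2, chr5:140691371-140691454 of GRCh38.p14, plus strand: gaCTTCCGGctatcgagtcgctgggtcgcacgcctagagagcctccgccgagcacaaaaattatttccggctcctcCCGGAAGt

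The authors deposited 1 FPKM value per gene and library, that is, fragments normalised to transcript length and to the number of mapped fragments. No read counts were used, and the depth was estimated from the lowest values at 10400000 reads in mock, 10300000 with sgL1ASP #1 and 8700000 with sgL1ASP #3. At these depths the members were covered by about 54 to 6561 reads each, and the standard errors given with log2 changes cover this counting error only. With 1 library per condition no difference has a replicate check, so no p-value is given and no member can be said to respond to a guide. In bulk RNA fewer cells that express a gene and less of its RNA per cell cannot be told apart. Of 6 genes used as marks of 293T cells, VIM, KRT8, KRT18, NEFL and NEFM had FPKM between 5.77 and 904, while PAX2 was low, between 0.522 and 0.658. Of 8 marker genes of blood, liver, connective tissue, endothelium and glia, the highest FPKM was 2.61, and PTPRC, CD3E and HBB were listed at 0 in every library.

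All members were expressed in every library. FPKM of the 37 genes ranged from 4.49 to 271 in mock (median 48.1), from 3.54 to 270.1 in sgL1ASP #1 (median 44.9) and from 5.47 to 255 in sgL1ASP #3 (median 47.8). Together they made up 0.381%, 0.358% and 0.354% of the FPKM sum. The order of the genes was much the same in the 3 libraries, and 17 of the 37 held an identical rank in each. Of the 36 pairs of neighbours in the order of mock, 19 differed by less than their 95% counting error.

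The cytosolic genes were led by SARS, the seryl-tRNA synthetase gene (GRCh37 chromosome 1, 109756540 to 109780804). Its FPKM was 271 in mock, 270.1 with sgL1ASP #1 and 255 with sgL1ASP #3, at the 97.9 percentile of genes with mean FPKM at least 1. AARS, for alanine, had FPKM 194, 196 and 197 in the same order. QARS, for glutamine, on chromosome 3 from 49133365 to 49142563, had FPKM 174.5, 177 and 181. Except for TARSL2, the cytosolic genes all lay at or above the 78.4 percentile.

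FARSA and FARSB encode the catalytic and the beta subunit of the same phenylalanyl-tRNA synthetase, which holds equal numbers of both. FPKM of FARSA was 153 in mock, 148 with sgL1ASP #1 and 161 with sgL1ASP #3, and that of FARSB was 35.9, 35.9 and 36.2. The ratio of the subunit mRNAs was 4.26, 4.11 and 4.45 in favour of FARSA. FPKM is scaled by transcript length. In the GENCODE 44 annotation the canonical transcript of FARSB is the longest of all members, with 6761 bases against 1811 for FARSA. The lengths behind the deposited FPKM are not given in the sources used here, and whether length bears on the ratio was not tested.

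The other low genes of the cytosolic class were VARS, for valine, and TARSL2. VARS had FPKM 48.1, 44.9 and 47.8 in mock, sgL1ASP #1 and sgL1ASP #3. TARSL2 (chromosome 15, 102193799 to 102264676) stood far below the rest of its class, with FPKM 8.76, 8.53 and 7.12. The main threonyl-tRNA synthetase gene, TARS, had FPKM 111, 113 and 111, so that TARS exceeded TARSL2 by 12.7, 13.3 and 15.6 times.

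The 8 synthetase genes of the multisynthetase complex had a median FPKM of 85.6 in mock, 86.3 with sgL1ASP #1 and 87.9 with sgL1ASP #3. The other 13 cytosolic genes had medians of 79.9, 76.8 and 78.7, and their range contained that of the complex. Within the complex, mean FPKM over the libraries ran from 57.6 for LARS, the leucyl-tRNA synthetase gene, to 177 for QARS. KARS had FPKM 141 in mock, 154 with sgL1ASP #1 and 152 with sgL1ASP #3, the second highest of the complex. IARS, for isoleucine, had FPKM 116.0, 117 and 116, and MARS, for methionine, 92.8, 85.7 and 90.9. DARS, for aspartate, had FPKM 78.4, 86.8 and 84.8, and RARS, for arginine, 61.4, 64.7 and 67.3. EPRS, a fused enzyme for glutamate and proline, had FPKM 58.6, 59.0 and 60.5, and LARS 58.9, 59.1 and 54.7. GARS, the other gene that serves both compartments, lies outside the complex and had FPKM 89.7, 89.6 and 86.5.

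The mitochondrial genes were expressed at a lower level. IARS2 was the highest of them, with FPKM 43.0 in mock, 40.6 with sgL1ASP #1 and 42.6 with sgL1ASP #3, followed by TARS2 with 29.7, 29.4 and 33.5 and VARS2 with 26.3, 26.4 and 29.5. The lowest was FARS2, the phenylalanine enzyme of mitochondria, with FPKM 4.49, 3.54 and 5.47. FARS2 also spans the longest stretch of the genome, 568.1 kb on chromosome 6 (5261277 to 5829425), for a transcript of 1679 bases. WARS2, for tryptophan, had FPKM 9.71, 10.4 and 9.21, and PARS2, for proline, 9.96, 11.6 and 11.6. In percentiles of mean FPKM the mitochondrial genes reached from 23.6 to 81.7.

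To compare the compartments, medians and same amino acid pairs were set side by side within each library. The median of the 21 cytosolic genes exceeded that of the 16 mitochondrial genes by 4.22 times in mock (79.9 against 18.9), by 4.67 times in sgL1ASP #1 (85.7 against 18.4) and by 4.79 times in sgL1ASP #3 (84.8 against 17.7). The median of the genes whose mean FPKM was at least 1 was 12.2 in each library. Summed FPKM differed by 6.67, 6.78 and 6.66 times. In each library 19 cytosolic genes lay above the highest mitochondrial gene, and only TARSL2 and FARSB did not. Genes are not replicates, so these are descriptions of the libraries.

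Each mitochondrial gene was also set against the cytosolic gene for the same amino acid, which gave 17 pairs over 16 amino acids. FARS2 was paired with both FARSA and FARSB, and EPRS with both EARS2 and PARS2. The cytosolic gene was higher in 17 of 17 pairs in every library, and in each case by more than 1.5-fold. The median ratio was 4.84 in mock, 5.08 with sgL1ASP #1 and 4.67 with sgL1ASP #3.

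The widest gaps belonged to FARSA and FARS2 (34.1 times in mock, 41.7 with sgL1ASP #1 and 29.5 with sgL1ASP #3), to SARS and SARS2 (11.9, 13.4 and 13.1) and to AARS and AARS2 (8.78, 8.98 and 9.11). The narrowest belonged to VARS and VARS2 (1.83, 1.70 and 1.62), to HARS and HARS2 (1.99, 1.90 and 2.05) and to IARS and IARS2 (2.70, 2.88 and 2.73).

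HARS and HARS2 are the pair whose stretch of promoter is printed above. FPKM of HARS was 49.5 in mock, 50.7 with sgL1ASP #1 and 53.8 with sgL1ASP #3, and that of HARS2 was 24.9, 26.6 and 26.2. In the GENCODE annotation on GRCh37 the 5′ ends of the genes, on opposite strands, overlap by 108 bases, while the RefSeq starts used for the printed stretch lie apart, and the FPKM were calculated in a strand-specific mode.

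With sgL1ASP #1, no member differed from mock by more than 1.5-fold, 0 of 37, where 3.20% of the 12830 genes above the FPKM limit of 1 did in either direction. Above 1.2-fold there was 1 member higher and 1 lower, against 6.87% and 7.55% of all genes. The member above was CARS2, the mitochondrial cysteine enzyme on chromosome 13 (111293759 to 111365950). Its FPKM was 13 in mock and 16.6 in sgL1ASP #1, a log2 change of 0.35 (counting SE 0.13), and 13.4 in sgL1ASP #3. The member below was FARS2, with a log2 change of -0.33 (counting SE 0.26) on about 69 reads in mock and 54 in sgL1ASP #1, so that its interval included 0.

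PARS2 and SARS2, for proline and serine in mitochondria, had the next largest changes. PARS2 had FPKM 9.96 in mock and 11.6 in sgL1ASP #1, a log2 change of 0.22 (counting SE 0.13). SARS2 had FPKM 22.9 and 20.2, a log2 change of -0.18 (counting SE 0.10). Both stayed under 2 counting standard errors.

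The cytosolic genes stayed nearer to mock. Their median log2 change with sgL1ASP #1 was 0.005, from -0.11 for MARS to 0.15 for DARS, and 11 of 21 were higher. The median of the mitochondrial genes was -0.026, from -0.33 to 0.35, with 6 of 16 higher, and the median of all genes was 0.001. Together 17 of 37 members were higher than mock, against 50.3% of all genes. In the complex 7 of 8 genes were higher, with MARS as the exception and a median of 0.015. Of these 7, only DARS and KARS were higher by more than 2 counting standard errors.

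A change of more than 2 counting standard errors was found in 6 of 37 members with sgL1ASP #1, against 16.7% of the 9299 genes within the members' range of FPKM. These were CARS2, DARS (log2 change 0.15, SE 0.041) and KARS (0.12, SE 0.039) on the higher side, and MARS (-0.11, SE 0.042), VARS (-0.10, SE 0.047) and EARS2 (-0.14, SE 0.069) on the lower side. The share is close to that of the genes within this range, which were not matched to the members in FPKM gene by gene.

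**Figure D1:**
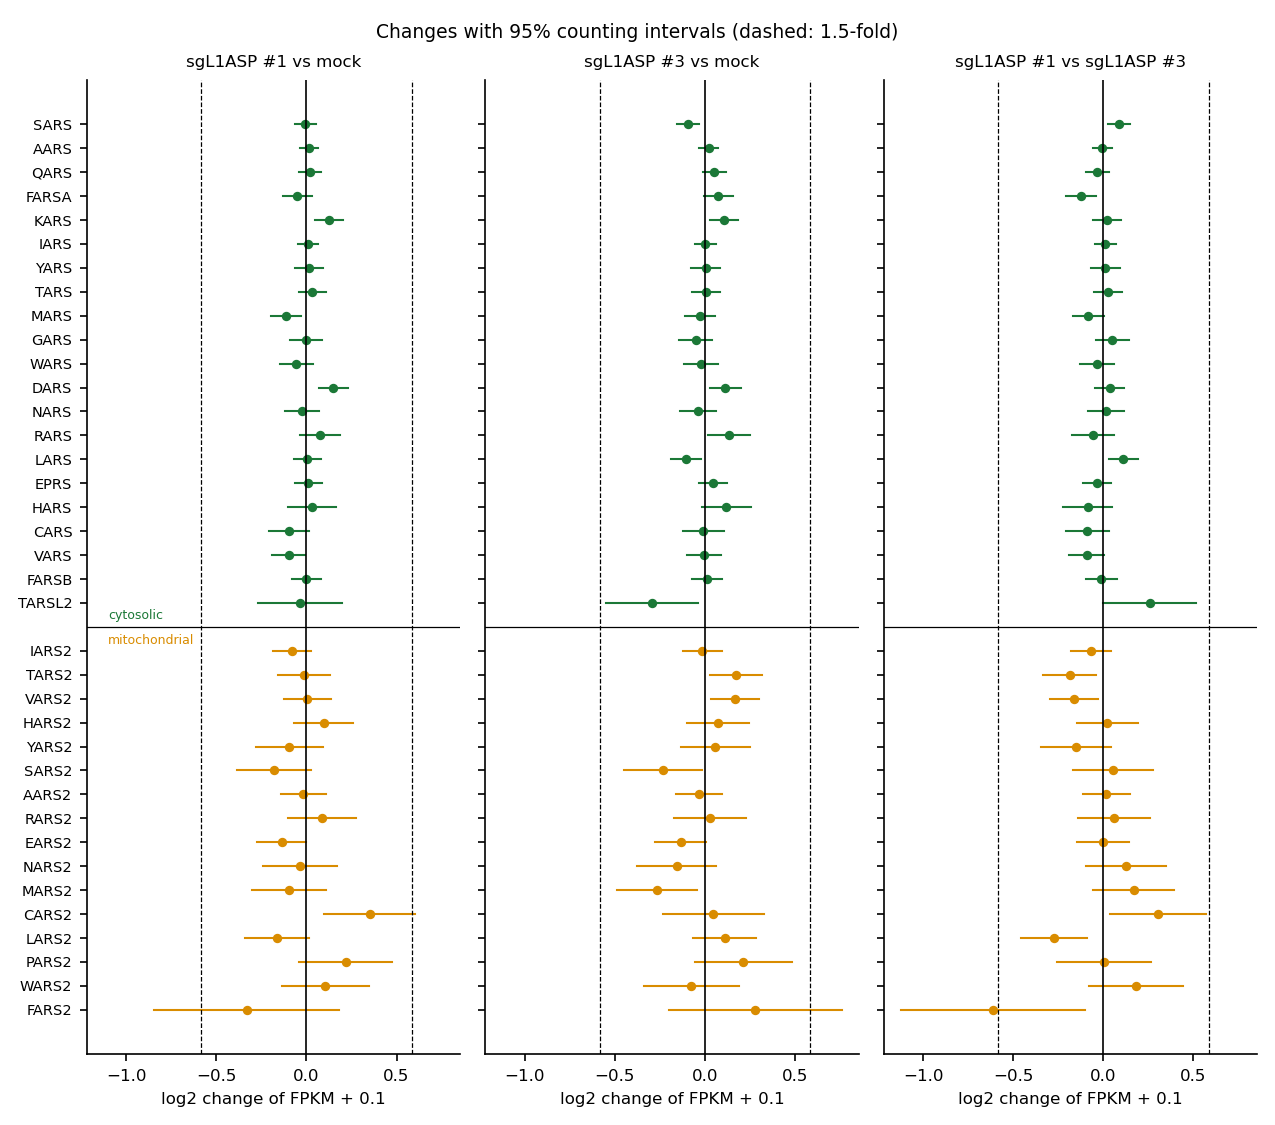
Change of log2(FPKM + 0.1) for each member between the libraries named above each panel, with 95% intervals for counting error only and dashed lines at 1.5-fold. FARS2, with the widest intervals, is the only member beyond a dashed line, at -0.61 between the guides.

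With sgL1ASP #3, again 0 of 37 members passed 1.5-fold against mock, where 3.45% of all genes did. Above 1.2-fold lay 1 member, and 2 lay below, against 7.38% and 7.72% of all genes. FARS2 was higher, with FPKM 5.47 against 4.49 in mock and a log2 change of 0.28 (counting SE 0.24). With sgL1ASP #1 it was on the other side of mock, and both intervals included 0. TARSL2 was lower, with FPKM 7.12 against 8.76 and a log2 change of -0.29 (counting SE 0.13). MARS2, for methionine in mitochondria and encoded by a single exon, was also lower, with FPKM 11.1 against 13.4 and a log2 change of -0.27 (counting SE 0.11). SARS2 followed, with FPKM 19.4 against 22.9 and a log2 change of -0.23 (counting SE 0.11).

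The median log2 change with sgL1ASP #3 was 0.004 for the cytosolic genes, from -0.29 to 0.13, with 12 of 21 higher. It was 0.037 for the mitochondrial genes, from -0.27 to 0.28, with 9 of 16 higher. In all, 21 of 37 members were higher than mock, against 50.4% of all genes, whose median was 0.001. In the complex 6 of 8 genes were higher, with a median of 0.049, and LARS and MARS were lower. Of these 6, only DARS, KARS and RARS were higher by more than 2 counting standard errors.

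A change of more than 2 counting standard errors was found in 10 of 37 members, against 15.3% of genes within their range of FPKM. The share of the members was the larger, and the difference was not tested. DARS (0.11, SE 0.043), KARS (0.11, SE 0.041), RARS (0.13, SE 0.059), TARS2 (0.17, SE 0.074) and VARS2 (0.17, SE 0.068) were on the higher side. SARS (-0.09, SE 0.031), LARS (-0.10, SE 0.041), TARSL2, MARS2 and SARS2 were on the lower side. DARS and KARS were higher than mock with either guide by more than 2 counting standard errors. Both guides were compared with the same mock library, so these are not independent observations.

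The scaling of the libraries bears on which side of mock such small changes fall. Rescaling to the median ratio left 11 of 21 cytosolic members above mock with either guide. Of the mitochondrial members, 6 of 16 were then above mock with sgL1ASP #1 and 9 with sgL1ASP #3. Of all genes, 50.3% and 49.5% were. After rescaling each library to an FPKM sum of 1000000, the median of all genes moved to -0.092 with sgL1ASP #1 and to -0.12 with sgL1ASP #3. The cytosolic members then had 2 and 1 genes of 21 above mock and the mitochondrial members 4 and 4 of 16, where 25% and 20.8% of all genes were above mock. Relative to the median of all genes, the cytosolic median was 0.003 with sgL1ASP #1 and 0.001 with sgL1ASP #3, and the mitochondrial median was -0.027 and 0.034.

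Between the guides, FARS2 was the only member past 1.5-fold, 1 of 37, where 3.31% of all genes were. FPKM of FARS2 was 3.54 with sgL1ASP #1 and 5.47 with sgL1ASP #3, a log2 difference of -0.61 (counting SE 0.26) on about 54 and 70 reads. Above 1.2-fold, 1 member was higher with sgL1ASP #1 and 2 were lower, against 7.39% and 7.31% of all genes. CARS2 was higher with sgL1ASP #1, by 0.30 on the log2 scale (SE 0.13). FARS2 and LARS2, the leucine enzyme of mitochondria, were lower with sgL1ASP #1. LARS2 had FPKM 10.1 with sgL1ASP #1 and 12.2 with sgL1ASP #3, with mock between them at 11.3, and a log2 difference of -0.27 (SE 0.093). TARSL2 differed by 0.26 (SE 0.13), just under 1.2-fold.

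By any amount 19 of 37 members were higher with sgL1ASP #1 than with sgL1ASP #3, against 49.0% of all genes. The median log2 difference was -0.006 for the cytosolic and 0.009 for the mitochondrial genes. A difference of more than 2 counting standard errors was found in 8 of 37 members, against 14.7% of genes within their range of FPKM. Here too the members had the larger share, which was not tested. Each guide library also stands in a comparison with mock. There LARS, SARS, TARS2 and VARS2 also passed with sgL1ASP #3, and CARS2 with sgL1ASP #1. The 8 differences are thus not independent of those comparisons. Beside CARS2, FARS2 and LARS2 these were FARSA (-0.13, SE 0.042), TARS2 (-0.19, SE 0.075) and VARS2 (-0.16, SE 0.068), lower with sgL1ASP #1, and LARS (0.11, SE 0.041) and SARS (0.09, SE 0.031), higher with it.

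For the cytosolic genes the counting intervals were narrow enough to set bounds. The 95% interval of the log2 change lay within 1.5-fold for 21 of 21 cytosolic genes in each of the 3 comparisons, and within 1.2-fold for 20 of 21, all but TARSL2. Among the 16 mitochondrial genes it lay within 1.5-fold for 14 with sgL1ASP #1 (all but CARS2 and FARS2) and for 15 with sgL1ASP #3 and between the guides (all but FARS2). It lay within 1.2-fold for 6, 5 and 5 of them. These bounds cover counting error only and say nothing of the spread between cultures.

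From the lowest to the highest library, FPKM of the 20 cytosolic genes other than TARSL2 differed by 1.01 to 1.11 times, with a median of 1.05, and 19 stayed under 1.1-fold. The mitochondrial genes differed by 1.02 to 1.54 times, with a median of 1.13, and 4 of 16 stayed under 1.1-fold. The median absolute log2 change of the 20 cytosolic genes was 0.028 with sgL1ASP #1, 0.042 with sgL1ASP #3 and 0.036 between the guides. The 2462 genes within the same range of FPKM, 36.0 to 265, had medians of 0.060, 0.059 and 0.060. The synthetase genes also had more reads per gene than these, with a median counting SE of 0.041, 0.042 and 0.042 against 0.056, 0.058 and 0.058.

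The mitochondrial genes did not show a smaller spread than other genes at their level. Their median absolute log2 change was 0.097 with sgL1ASP #1, 0.12 with sgL1ASP #3 and 0.14 between the guides, where the 7244 genes within FPKM 4.50 to 42.1 had 0.085, 0.087 and 0.084. The median counting SE was 0.096, 0.10 and 0.10 for the members and 0.095, 0.099 and 0.10 for the other genes. Whether either class differs from other genes in its spread was not tested.

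**Figure D2:**
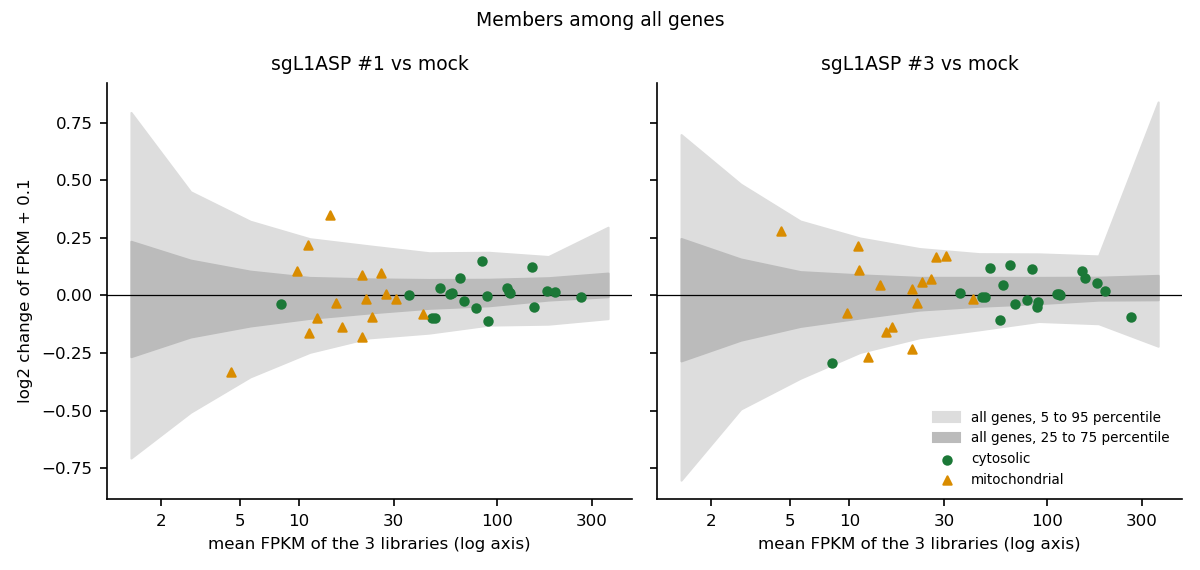
Change of log2(FPKM + 0.1) against mean FPKM (log axis) for cytosolic (circles) and mitochondrial (triangles) members, over the 25 to 75 and 5 to 95 percentile ranges of all genes in bins of FPKM. With sgL1ASP #1 the cytosolic genes sit between -0.11 and 0.15, while CARS2, at 0.35, lies above the 95 percentile of its bin, 0.25.

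The 7 cytosolic genes with a CARE core, AARS, CARS, GARS, IARS, MARS, NARS and TARS, stayed close to mock. Their median log2 change was -0.001 with sgL1ASP #1, from -0.11 for MARS to 0.03 for TARS, and -0.008 with sgL1ASP #3, from -0.05 for GARS to 0.02 for AARS. The 9 cytosolic genes whose windows lacked the core had medians of 0.009 and 0.053. YARS2, the mitochondrial gene with the core, had FPKM 23.6 in mock, 22.1 with sgL1ASP #1 and 24.5 with sgL1ASP #3.

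Other genes of the amino acid stress response were followed as a list of 16, all with FPKM at least 1 in every library. ATF4 itself had FPKM 920.0 in mock, 924 with sgL1ASP #1 and 950.0 with sgL1ASP #3. The median log2 change of the list was -0.013 with sgL1ASP #1 and 0.015 with sgL1ASP #3. Of its genes 7 and 11 were higher than mock, against 50.3% and 50.4% of all genes, and 0 of 16 passed 1.5-fold in either comparison. With sgL1ASP #1, 2 of 16 genes were lower by more than 1.2-fold, against 7.55% of all genes. CHAC1, which encodes an enzyme that degrades glutathione, had FPKM 9.15, 6.77 and 8.98 in mock, sgL1ASP #1 and sgL1ASP #3, and a log2 change of -0.43 (counting SE 0.20) with sgL1ASP #1. SLC7A11, the cystine transporter gene, had FPKM 1.63, 1.32 and 1.47, and its change of -0.28 (counting SE 0.17) was within 2 counting standard errors. The next largest change was that of DDIT4, a stress-induced inhibitor of mTORC1 signalling, with FPKM 81.6, 95 and 91.7. Its log2 change was 0.22 (counting SE 0.054) with sgL1ASP #1 and 0.17 (counting SE 0.057) with sgL1ASP #3. Both were past 2 counting standard errors, and both were against the same mock library. ASNS, the asparagine synthetase gene and a classical ATF4 target, had FPKM 143, 142 and 150.

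The partners of the synthetases were followed in the same way. The scaffolds of the multisynthetase complex passed 1.2-fold in 0 of 3 cases in each comparison. AIMP1 had FPKM 28.5 in mock, 28.4 with sgL1ASP #1 and 26.8 with sgL1ASP #3. AIMP2 had FPKM 48.1, 43.4 and 50.9, and EEF1E1, also known as AIMP3, 50.9, 52.2 and 60.4. Both were lower with sgL1ASP #1 than with sgL1ASP #3, with log2 differences of -0.23 (counting SE 0.097) and -0.21 (counting SE 0.096).

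The subunits of elongation factor 1, which receives the charged tRNA and carries it to the ribosome, were abundant. FPKM of EEF1G was 1025 in mock, 1062 with sgL1ASP #1 and 1081 with sgL1ASP #3, that of EEF1A1 was 393, 410 and 414, and that of EEF1B2 was 381, 395 and 391. All 3 were above the highest synthetase gene, SARS, and so was EEF1D in each library. EEF1A1 has many near-identical pseudogenes, so its value is uncertain. EEF1D had FPKM 276, 310 and 265. Its log2 change was 0.17 (counting SE 0.027) with sgL1ASP #1 and -0.06 (counting SE 0.029) with sgL1ASP #3. EEF1A2 had FPKM 153, 154 and 145. Of these 5 genes 5 were higher than mock with sgL1ASP #1 and 3 with sgL1ASP #3, and 0 passed 1.2-fold.

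Of 12 genes for charging and translation factors of mitochondria, 8 were higher than mock with sgL1ASP #1 and 5 with sgL1ASP #3. Of all genes 50.3% and 50.4% were higher. The list had median log2 changes of 0.020 and -0.029, and 0 of its genes passed 1.2-fold. The list includes TUFM, the elongation factor that carries charged tRNA in mitochondria, with FPKM 216, 220 and 221. The largest changes against mock were those of MTRF1L, a release factor gene, with FPKM 4.12, 4.31 and 4.69, of PET112 (now GATB), with 14.8, 13 and 14, and of MTIF3, an initiation factor gene, with 37.6, 42.3 and 40.2. PET112 encodes a subunit of the amidotransferase that makes mitochondrial glutaminyl-tRNA from the product of EARS2, for want of a mitochondrial glutamine enzyme. Its log2 change was -0.18 (counting SE 0.12) with sgL1ASP #1 and -0.07 (counting SE 0.12) with sgL1ASP #3, both against the same mock library. GATC, another subunit, had changes of 0.03 and 0.02, and QRSL1, the catalytic subunit, of -0.09 and -0.04, all within 2 counting standard errors.

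Of 6 genes for proofreading of charged tRNA and for the selenocysteine route, 3 were higher than mock with sgL1ASP #1 and 4 with sgL1ASP #3. The share of all genes was 50.3% and 50.4%. Median log2 changes of the list were 0.020 and 0.058. C14orf126 (now DTD2), which removes wrongly attached D-amino acids or alanine from tRNA, was the only one past 1.2-fold, with FPKM 6.16 in mock, 5.03 with sgL1ASP #1 and 6.07 with sgL1ASP #3. With sgL1ASP #1 its log2 change was -0.29 (counting SE 0.17), within 2 counting standard errors, and 7.55% of all genes were lower by more than 1.2-fold. SECISBP2, which guides selenocysteine insertion, had FPKM 25.3, 22.8 and 21.7. Its log2 change was -0.15 (counting SE 0.071) with sgL1ASP #1 and -0.22 (counting SE 0.076) with sgL1ASP #3. Both were past 2 counting standard errors, against the same mock library. SEPSECS, which makes selenocysteinyl-tRNA from phosphoseryl-tRNA, had FPKM 1.14, 1.31 and 1.31.

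QARS is the member on a list of genes that the study drew up from this experiment. Its values here come from the same libraries as that list and are no independent check of it. In the deposited gene values its log2 change was 0.02 (counting SE 0.032) with sgL1ASP #1 and 0.05 (counting SE 0.033) with sgL1ASP #3, on about 4100 reads in mock. The log2 difference between sgL1ASP #1 and sgL1ASP #3 was -0.03, and the 95% interval lay within 1.2-fold in each comparison. No name in the tables joined a member's name to another gene, so 0 antisense or readthrough genes of this kind were compared.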

How the data were processed

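The authors prepared stranded mRNA libraries (TruSeq), sequenced 75-base single-end reads, mapped them to hg19 with TopHat2 2.0.13, Bowtie2 2.2.3 and SAMtools 0.1.19, and deposited FPKM per gene calculated with Cuffdiff of Cufflinks 2.2.1 in a strand-specific mode. The gene annotation and the scaling between libraries are not given in the sources used here, nor is the time of RNA extraction after transfection. Each sample was assigned to its group from its title, and 0 value columns belonged to no sample.

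FPKM were used as deposited. Fold thresholds of 1.5 and 1.2 were applied to ratios without a pseudocount, and a 0 in a denominator gave no call. Log2 changes used log2(FPKM + 0.1), which understates changes of low genes. The background was the 12830 genes with mean FPKM at least 1. Reads per gene were estimated from FPKM, the depth and the canonical transcript of GENCODE 44 on GRCh37 (the sequence of hg19) less 200 bases. The depth came from genes with 1 transcript longer than 1000 bases, on the spacing of values of a single read. The peak held 35 of 1103 such genes in mock, 51 of 1155 with sgL1ASP #1 and 41 of 1104 with sgL1ASP #3. The fold rule and the depth estimate were tested on simulated data, in which the exact transcript lengths were known. The simulation could not test whether the GENCODE lengths match those behind the deposited FPKM. No test between conditions was possible with 1 library each.

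The members, companion lists and rules were chosen with earlier results of these data known. Every member could be named. Given in full were the 3 highest and 3 lowest of each class, the 4 largest changes of each comparison, the 3 widest and 3 narrowest pairs, the complex, QARS, TARSL2, GARS and KARS, and any member past 1.5-fold. Lists of 5 or fewer genes were named whole, and of the longer ones the 3 largest changes. Further genes of the longer lists (ATF4, ASNS, TUFM, GATC, QRSL1) were named after their values were seen. The promoter search was added after the values were seen. Older names of 19 members were matched through a table of current and older symbols. Printed sequences are RefSeq promoters on GRCh38.p14, while gene positions are those of GRCh37. Alternatives were other pseudocounts, rescaling, a filter at FPKM 10, means, and other class assignments. Python 3.11.15, NumPy 2.4.6, pandas 2.3.3 and matplotlib 3.10.9 were used.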

Additional observations from a re-analysis of the deposited data

How the results depend on the processing

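No paired analysis was possible because only 1 library stands for each condition, and no library could be left out of its condition. Of 87 alternative values, 80 stayed within 1.5 times the main count or ratio or, for medians of log2 changes, within the 95% counting error of the median gene. The number of members past 1.2-fold with sgL1ASP #1 (2) was 1 among members with FPKM at least 10 in every library, which leaves out FARS2. With sgL1ASP #3 it (3) was 1 with a pseudocount of 1 and 1 with that filter, which leaves out FARS2 and TARSL2. The single member past 1.5-fold between the guides, FARS2, was lost with a pseudocount of 1 and with the filter, each giving 0. After rescaling to an FPKM sum of 1000000, the cytosolic median was -0.089 with sgL1ASP #1 and -0.12 with sgL1ASP #3, with all genes moving alike. Moving TARSL2 to the names ending in 2, leaving out GARS and KARS, taking means and asking for a 1.5-fold excess in pairs moved no value past these limits. Depth limits the genes with few reads, above all FARS2.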
